A study of Mus musculus with 61 samples.

Results

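The genes described here are 10 of the 55052 genes in the expression table: Sox1, Sox3, Pax6, Irx3, Olig2, Nkx6-1, Pax7, Neurog1, Neurog2 and Tubb3. They were chosen by name, as genes that mark progenitors of the spinal cord, the domains into which those progenitors are divided, and the neurons they make. Each was followed in bulk mRNA of mouse stembryos, also called gastruloids, which form when embryonic stem cells are aggregated, pulsed with a Wnt pathway agonist and left to elongate, and which hold neural and mesodermal tissue. The series asked how CTCF binding sites (CBS) in the HoxD cluster, a row of homeobox genes, take part in the timed activation of those genes.

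The wild-type (wt) time course held 2 libraries at each of 72, 84, 96, 108, 120, 132, 144 and 168 h after aggregation. Outside it were wild-type control libraries, 4 at 96 h, 4 at 120 h and 2 at 144 h. All stembryos received the agonist pulse, the wild type included. At 96 and 120 h the mutant stembryos carried Del(CBS1), Del(CBS2), both of these in Del(CBS1-2), Del(CBS1-5), Del(d1-d4), which removes Hoxd1 to Hoxd4, Del(sub-TAD1), a deletion in the regulatory landscape beside the cluster, or Ins(2xCBS-d4d8), an inserted cassette with 2 extra CTCF sites. Del(CBS4) was sequenced at 120 and 144 h, and Del(CBS1-5) also at 144 h. Each mutant group held 2 libraries except Del(sub-TAD1) at 96 h, which held 3. The wild type and most mutants came from 1 embryonic stem cell line edited with CRISPR/Cas9, whereas for Del(CBS1-5) and Del(sub-TAD1) new lines were taken from blastocysts of mice of another background, and Del(sub-TAD1) also carried a transgene that restored Mtx2. For those 2 mutants the deletion and the origin of the line cannot be told apart. Each library was made from stembryos pooled within a condition, and from 108 h only elongating stembryos were collected.

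In the developing neural tube, SoxB1 factors such as Sox1 and Sox3 keep cells as neural progenitors. Signals from the dorsal and ventral edges then divide the progenitors into stripes along the back-to-belly axis, each with its own homeodomain or basic helix-loop-helix (bHLH) factors. Proneural bHLH factors such as Neurog1 and Neurog2 then push progenitors out of the cycle towards neurons, which build their cytoskeleton with class III beta-tubulin.

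Expression was given as FPKM, the fragments of a transcript scaled by its length and by the mapped fragments of the library, so levels of different genes are compared per length throughout. Depth was estimated at 14.6 to 37.9 M fragments over the 61 libraries. The libraries formed 2 sets that did not overlap in the mitochondrial transcript mt-Co3, which measured 995 to 1718 FPKM in 28 libraries (set 1) and 0.338 to 2.76 FPKM in 33 (set 2). Set 1 held wild-type replicates 1 to 3 at 96 and 120 h, Del(CBS1), Del(CBS1-2), Del(CBS2), Del(d1-d4), Del(CBS1-5) at 96 and 120 h, and Del(sub-TAD1) at 120 h. Set 2 held the time course, wild-type replicate 4, the wild type at 144 h and the remaining mutant libraries. Mutant calls below are therefore also given within their own set, where the controls of set 2 were wild-type replicate 4 and the time-course libraries of that stage. Changes are log2 differences of FPKM plus 0.1 with their standard error (SE), tested with limma, and a change is called at an adjusted p under 0.05. Where groups are said not to overlap, this describes the listed values. The share of all genes without overlap is not given beside it, so it is not a further test. Nothing in the labels says that the replicates came from separate cultures, so p-values measure the spread between these libraries. In bulk RNA, fewer cells of a type and less RNA per cell cannot be told apart.

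The promoters of Olig2, Neurog1 and Neurog2 are shown because these bHLH genes rose at the same step of the time course, from 132 to 144 h. The sequences are from RefSeq (GRCm38.p6), which held an entry for 9 of the 10 genes, and run 5′ to 3′ on the strand of the gene, up to the base before its annotated start. Olig2 is on the plus strand at chr16:91225300-91225456, Neurog1 on the minus strand at chr13:56252181-56252430, and Neurog2 on the plus strand at chr3:127632886-127633134. Capitals mark every match, on either strand, to a CCAAT box, to TAATTA as the homeodomain core or to ACAATG as the SOX core, and no marked matches overlap each other.
Olig2: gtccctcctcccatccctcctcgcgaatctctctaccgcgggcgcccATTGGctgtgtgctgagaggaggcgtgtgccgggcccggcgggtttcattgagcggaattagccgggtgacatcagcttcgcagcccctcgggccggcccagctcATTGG
Neurog1: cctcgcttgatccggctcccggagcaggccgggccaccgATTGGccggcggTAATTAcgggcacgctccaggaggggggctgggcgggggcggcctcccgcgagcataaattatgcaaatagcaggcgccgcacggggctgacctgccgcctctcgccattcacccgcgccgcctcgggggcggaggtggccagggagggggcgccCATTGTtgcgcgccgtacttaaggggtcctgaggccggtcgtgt
Neurog2: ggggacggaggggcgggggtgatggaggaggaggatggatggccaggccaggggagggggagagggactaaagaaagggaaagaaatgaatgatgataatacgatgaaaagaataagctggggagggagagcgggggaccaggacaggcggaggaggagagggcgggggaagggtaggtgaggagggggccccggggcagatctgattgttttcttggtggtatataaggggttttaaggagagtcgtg

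The Olig2 stretch held the CCAAT box at 2 places, the Neurog1 stretch held each of the 3 motifs once, and the Neurog2 stretch held none of them. The Olig2 stretch has 157 bases against 250 for Neurog1, because it stops at an annotated start that lies before the RefSeq start. The rest of the Olig2 window of 300 bases held 1 match to the SOX core ACAATG, at -68 from the RefSeq start. It also held 1 match to TATAAA, at -8. Among all 32851 RefSeq promoter windows of 300 bases, 37.4% held a CCAAT box, 5.29% the homeodomain core and 12.6% the SOX core. These windows are longer than the printed stretches and reach past the start. The bHLH E-box CAGATG, present in 17.2% of all windows, was in no window of the 9 genes, and nor was the second E-box searched, CAGCTG, present in 16.3%. ACAAAG, another SOX core held by 18.7% of windows, was in a window of Pax6 alone. The CCAAT box, the SOX core marked here and the letters TATAAA (13.6% of windows) were added to the search after the windows had been seen. These matches describe the letters in the windows and no binding was measured.

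Over the time course the 10 genes reached 1 FPKM in both libraries at different stages: Sox3 and Tubb3 at 72 h, Irx3 at 96 h, Pax7 at 108 h, Pax6 at 120 h, Sox1 at 132 h, Olig2, Nkx6-1 and Neurog2 at 144 h and Neurog1 at 168 h. All 10 were higher at 168 h than at 96 h, where 21.9% of the 17098 genes tested were called higher. The median change of the 10 was 4.73 on the log2 scale. Over all genes tested the median change lay between -0.07 and 0.06 in every comparison given here. The mean at 168 h was 12.6 times that at 96 h for Pax7, 13.7 times for Irx3, 17.4 times for Tubb3, 24.9 times for Sox3, 31.2 times for Sox1, 33.5 times for Nkx6-1, 69.5 times for Neurog2 and 129 times for Pax6. Olig2 and Neurog1 were at or under 3 fragments in both 96 h libraries and were at least 210-fold and at least 131-fold higher at 168 h, from the FPKM that 3 fragments in a library would give. Such bounds, and fragment numbers given below, cover counting error only. All 10 of these calls stood without any 1 library, and 8 of 10 in a fit of the 96 and 168 h libraries alone.

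**Figure D1:**
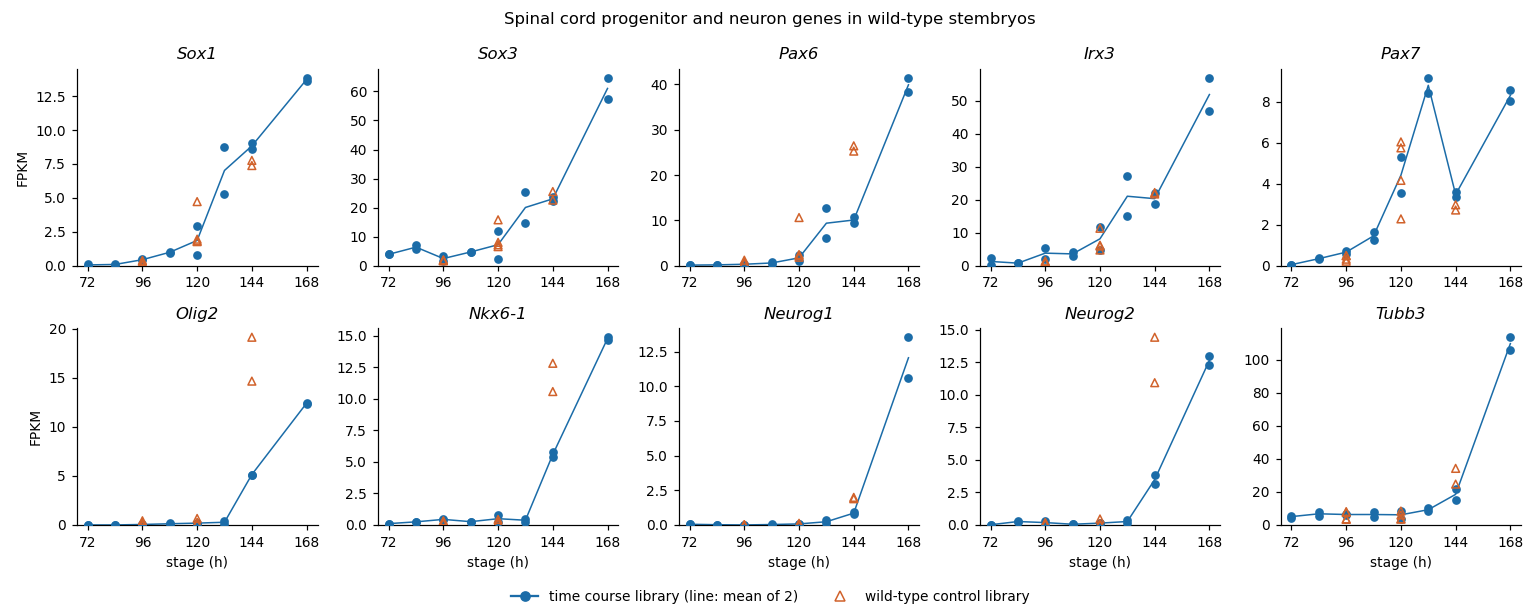
Expression of each gene (FPKM, vertical axis) against hours after aggregation (horizontal axis). Blue dots are the 2 time-course libraries of a stage, the line joins their means, and orange open triangles are wild-type control libraries outside the time course. Sox3 and Tubb3 were at 1 FPKM or more in every library from 72 h, whereas Neurog1 reached that level in both libraries only at 168 h.

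Sox1, a SoxB1 factor whose start in the embryo marks the committed neural plate, lies on chromosome 8 (mm10, chr8:12395295-12400126, plus strand). It was at 0.0100 and 0.0962 FPKM at 72 h, 0.122 and 0.0535 at 84 h, 0.424 and 0.456 at 96 h, 0.940 and 1.04 at 108 h, and 0.757 and 2.96 at 120 h. The libraries then held 8.75 and 5.29 FPKM at 132 h, 8.60 and 9.05 at 144 h, and 13.8 and 13.6 at 168 h. The 96 h libraries lay above both 84 h libraries, and the 132 h libraries above both 120 h libraries. Sox1 rose by 1.55 (SE 0.43, adjusted p = 0.00815) from 84 to 96 h and by 2.09 (SE 0.43, adjusted p = 0.00509) from 120 to 132 h. At 120 h replicate 2 exceeded replicate 1 for Sox1, Sox3, Pax6, Irx3, Pax7 and Tubb3 alike.

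Sox3, a SoxB1 factor shared by early pluripotent and neural cells, lies on the X chromosome (chrX:60891366-60893430, minus strand). It was already at 3.94 and 3.85 FPKM at 72 h and at 7.09 and 5.65 at 84 h, and fell to 3.33 and 1.56 at 96 h (log2 change -1.43, SE 0.41, adjusted p = 0.00904). Later levels were 4.57 and 4.86 FPKM at 108 h, 2.42 and 12.0 at 120 h, 25.5 and 14.6 at 132 h, 22.2 and 23.8 at 144 h, and 64.7 and 57.3 at 168 h. Sox3 was the only 1 of the 10 genes called lower at this step, and its pairs at 84 and 96 h did not overlap. It rose from 120 to 132 h by 1.81 (SE 0.41, adjusted p = 0.00905) and from 144 to 168 h by 1.40 (SE 0.41, adjusted p = 0.0208).

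Pax6, a paired homeodomain factor of neural progenitors outside the ventral and dorsal extremes (chr2:105668900-105697364, plus strand, 26 annotated transcripts), stood under 1 FPKM in every time-course library up to 108 h. It measured 1.06 and 2.38 FPKM at 120 h, 12.7 and 6.04 at 132 h, 9.40 and 10.7 at 144 h, and 41.4 and 38.4 at 168 h. The level thus went up in 2 steps with a flat stretch between them: by 2.39 (SE 0.47, adjusted p = 0.0038) from 120 to 132 h, by 0.20 (SE 0.47) from 132 to 144 h, which was not called, and by 1.98 (SE 0.47, adjusted p = 0.00427) to 168 h. Over the 16 time-course libraries the profile nearest to Pax6 was that of Sfrp2, a secreted Wnt binding protein (Pearson r = 0.988), and the next that of Pou3f2, a POU factor of neural progenitors (r = 0.985). These values describe libraries that share stage and depth, and carry no test.

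Irx3, an Iroquois homeodomain factor of progenitors dorsal to the motor neuron domain (chr8:91798525-91802067, minus strand), differed widely between the paired libraries of 72, 96 and 120 h. It was at 2.2 and 0.345 FPKM at 72 h, 0.795 and 0.725 at 84 h, 2.13 and 5.45 at 96 h, 2.85 and 4.27 at 108 h, and 4.67 and 11.6 at 120 h. It reached 27.1 and 14.9 FPKM at 132 h, 18.6 and 21.9 at 144 h, and 56.9 and 46.8 at 168 h. The 132 h libraries were above the 120 h libraries, but this change of 1.44 was not called. The 168 h libraries were above the 144 h libraries, with a change of 1.35 that was not called either. The only step called was that from 84 to 96 h, with a change of 2.03 (SE 0.48, adjusted p = 0.00167). The 4 wild-type controls of 96 h held 0.993 to 1.42 FPKM of Irx3, below both time-course libraries of that stage.

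Of the domain genes, Pax7 came on first. Pax7, a paired factor of the dorsal neural tube that also marks neural crest and muscle precursors, lies on chromosome 4 (chr4:139737062-139833528, minus strand). It was at 0.0493 FPKM in both libraries at 72 h, 0.367 and 0.315 at 84 h, 0.737 and 0.585 at 96 h, 1.25 and 1.66 at 108 h, and 3.55 and 5.28 at 120 h. It peaked at 9.17 and 8.44 FPKM at 132 h, fell to 3.36 and 3.58 at 144 h and rose again to 8.03 and 8.59 at 168 h. All 7 steps were called, with changes of 1.56, 0.78, 1.02, 1.53 and 1.01 up to 132 h, -1.32 (SE 0.27, adjusted p = 0.00265) from 132 to 144 h and 1.23 (SE 0.27, adjusted p = 0.00177) from 144 to 168 h. It was the only 1 of the 10 genes with its highest mean before 168 h.

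Olig2 and Nkx6-1 stayed under 1 FPKM until 132 h and rose at 144 h. Olig2, the bHLH factor of the motor neuron progenitor domain (chr16:91225457-91228677, plus strand), was listed at 0 in the 4 libraries of 72 and 84 h and measured 0.0372 and 0.0587 FPKM at 96 h, 0.0729 and 0.171 at 108 h, 0.234 and 0.139 at 120 h and 0.138 and 0.411 at 132 h. It then stood at 5.13 and 5.14 FPKM at 144 h and 12.4 in both libraries at 168 h. The rise from 132 to 144 h was 3.91 (SE 0.57, adjusted p = 3.48e-05). Nkx6-1, a homeodomain factor of the ventral progenitor domains (chr5:101658139-101664996, minus strand), measured 0.0947 to 0.774 FPKM in the 12 libraries up to 132 h, 5.75 and 5.43 at 144 h, and 14.7 and 14.9 at 168 h. It rose by 3.63 (SE 0.44, adjusted p = 1.06e-06) from 132 to 144 h and by 1.39 (SE 0.44, adjusted p = 0.0377) to 168 h. Of all pairs among the 10 genes, these had the most alike profiles over the 16 libraries (r = 0.976). For both, Nts, which encodes neurotensin, was the nearest other gene (r = 0.980 with Olig2 and 0.975 with Nkx6-1).

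Neurog2, a proneural bHLH factor (chr3:127633135-127635631, plus strand), had an early low phase before its main rise. It was at 0 and 0.0273 FPKM at 72 h, at 0.323 and 0.202 at 84 h and at 0.341 and 0.0225 at 96 h, and rose by 1.66 (SE 0.47, adjusted p = 0.0105) from 72 to 84 h. The 84 h levels rest on 14 and 10 fragments. Neurog2 then measured 0.395 and 0.131 FPKM at 132 h (15 and 5 fragments), 3.82 and 3.16 at 144 h (138 and 97 fragments), and 12.3 and 13 at 168 h. It rose by 3.40 (SE 0.47, adjusted p = 1.15e-05) from 132 to 144 h and by 1.84 (SE 0.47, adjusted p = 0.00756) from 144 to 168 h.

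Neurog1, the related factor of dorsal and sensory lineages (chr13:56250478-56252163, minus strand), came later. It had at most 3 fragments in each library up to 120 h, 0.322 and 0.142 FPKM at 132 h, 0.788 and 0.917 at 144 h (21 fragments in each library), and 13.5 and 10.6 at 168 h. The step from 132 to 144 h was 1.57 (SE 0.36, adjusted p = 0.00724), and the step from 144 to 168 h was 3.67 (SE 0.36, adjusted p = 2.85e-09). Neurog1 was therefore under 1 FPKM at the stage at which Neurog2 exceeded 3 FPKM.

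Tubb3, which encodes the class III beta-tubulin of neurons (chr8:123411424-123422015, plus strand), was never absent. It lay between 3.88 and 10.05 FPKM in the 12 libraries up to 132 h, at 21.9 and 15.1 at 144 h, and at 106 and 114 at 168 h. Only the last step was called, with a change of 2.58 (SE 0.38, adjusted p = 8.81e-06). Its profile was more like that of Neurog1 (r = 0.971) than that of any other of the 10 genes. Gm20388 is annotated over Tubb3 on its strand, and Sox1ot over Sox1, so the division of fragments between them is uncertain. Pax6os1 and Irx3os overlap Pax6 and Irx3 on the opposite strand.

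**Figure D2:**
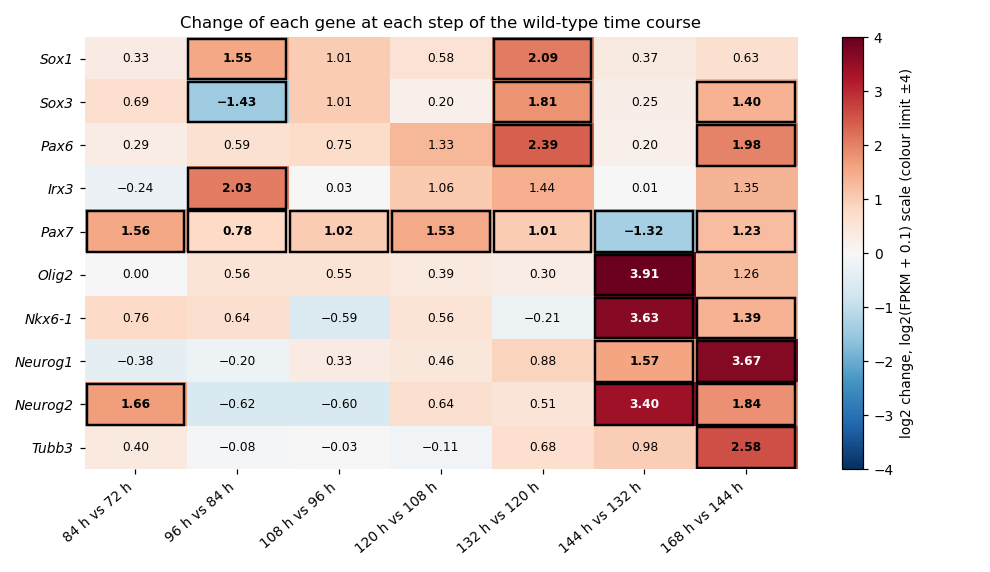
Log2 change of each gene (rows) at each of the 7 steps of the wild-type time course (columns), on the log2(FPKM + 0.1) scale, from 2 libraries per stage. Boxed bold values passed an adjusted p under 0.05. Pax7 is boxed at all 7 steps, Olig2 at the step to 144 h alone and Tubb3 at the step to 168 h alone, and the other genes at 1 to 3 steps each.

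The steps differed in how many genes changed, and the counts of the 10 are read against that. From 72 to 84 h, 2 of the 10 were called (16.3% of all genes tested), from 84 to 96 h 4 (20.7%), from 96 to 108 h 1 (9.45%), from 108 to 120 h 1 (7.06%), from 120 to 132 h 4 (2.46%), from 132 to 144 h 5 (5.42%) and from 144 to 168 h 7 (9.87%). The calls rest unequally on single libraries. All 4 calls from 120 to 132 h, for Sox1, Sox3, Pax6 and Pax7, were lost without replicate 1 of 120 h, where the changes became 1.17, 0.68, 1.84 and 0.72, and also without replicate 1 of 132 h, where they became 1.74, 1.41, 1.86 and 0.95. Without replicate 2 of 96 h the step from 84 to 96 h became -0.91 for Sox3, 1.38 for Irx3 and 1.5 for Sox1, none called. That of Sox1 was also lost without replicate 2 of 84 h (1.28), that of Sox3 without replicate 1 of 84 h (-1.27), and that of Pax7 without any 1 of the 4 libraries (0.64 to 0.93). The early rise of Neurog2 was lost without replicate 1 of 72 h (1.49) or 84 h (1.42), the rise of Pax7 to 108 h without replicate 2 of 96 h (0.88) or 108 h (0.83), and the rise of Neurog1 to 144 h without replicate 2 of 132 h (1.17) or 144 h (1.47). From 144 to 168 h the calls of Sox3 (1.31 to 1.49) and Nkx6-1 (1.35 to 1.43) were lost without any 1 of the 4 libraries, that of Pax6 without replicate 1 of 144 h (1.88), and that of Neurog2 without replicate 2 of 144 h (1.70) or 168 h (1.80). The rises of Olig2, Nkx6-1 and Neurog2 to 144 h and of Neurog1 and Tubb3 to 168 h stood without any 1 library. In fits of only the stages compared, limma made 10 calls over the 7 steps in place of 24, with 31 of 70 tests at an unadjusted p under 0.05: all 7 calls from 144 to 168 h were made and none of the 5 from 132 to 144 h.

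Other spinal cord genes were followed in lists chosen with earlier results of these data known. The counts are out of the tested genes of a list, those with a mean of at least 1 FPKM in at least 1 group. Listed genes that stayed low in every group are left out, and a gene can pass through the group where it is high alone. Counts of rises are therefore set in part by this filter. From 120 to 132 h, 4 of 7 genes of the intermediate domains rose and none fell, with a median change of 2.10. Dbx1, a homeodomain factor of interneuron progenitors, went from 0.620 to 4.97 FPKM, Dbx2 from 0.0692 to 0.871 and Prdm13 from 0.105 to 0.786, as means of 2. None of the 8 ventral, 16 proneural and Notch, or 13 neuron structure genes were called at that step. From 132 to 144 h, 6 of 8 ventral genes rose and none fell (median 2.26), while none of the 7 intermediate genes were called (median 0.12). Shh, the ventral signal itself, went from 0.0907 to 2.19 FPKM, Nkx2-9 from 0.0990 to 1.30 and the Shh target Hhip from 0.109 to 0.737, whereas Gli3, a transducer of that signal, was not called. Shh and its targets are not confined to the neural tube, since notochord and gut also use them, and in this same step 4 of 8 endoderm genes and 5 of 5 cardiac genes rose (median of the cardiac list 3.93). The part of these other tissues in the rises of Olig2 and Nkx6-1 was not tested.

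From 144 to 168 h many genes of neurons rose. Of 13 neuron structure genes 11 rose and none fell (median 2.35): Dcx, a microtubule binding protein of young neurons, went from 0.276 to 5.46 FPKM, Elavl3 from 0.890 to 6.38 and Elavl4 from 3.02 to 12.2. The summed level of that list was 159 to 161 FPKM at 168 h and 38.7 to 43.4 at 144 h, but it had also been 122 to 143 at 72 h and 149 to 153 at 84 h, and the neuron identity sum was higher at 72 h (43.3 to 109) than at 168 h (22.7 to 22.9). Of 16 proneural and Notch genes 8 rose and none fell from 144 to 168 h, among them the proneural effectors Neurod4, from 2.00 to 15.1 FPKM, Nhlh1, from 1.13 to 10.3, and Insm1, from 0.472 to 6.50. No ventral gene was called at this step, against 4 higher of 7 intermediate genes and 3 of 9 dorsal genes. Gsx1, a homeodomain factor of dorsal interneuron progenitors, went from 0.0355 to 1.70 FPKM.

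Between 96 and 168 h, 7 of 7 intermediate genes, 6 of 8 ventral, 5 of 9 dorsal, 11 of 15 pan-neural, 11 of 16 proneural and Notch, 6 of 10 neuron identity and 9 of 13 neuron structure genes rose, while 0, 0, 3, 2, 2, 2 and 1 fell, in that order. The sums of these lists did not all go up: from 96 to 168 h the proneural and Notch sum went from 289 to 375 FPKM to 237 to 246, the neuron identity sum from 33.5 to 51.1 to 22.7 to 22.9 and the dorsal sum from 57.1 to 93.0 to 40.9 to 45.4. Dbx1 had the largest change of those lists, 9.10 on the log2 scale, from 0.0241 to 67.5 FPKM. Pou3f2 and Sox21, both of neural progenitors, changed by 7.31 and 5.84, and Zic1, of the dorsal neural tube, by 5.57. Onecut1, Isl2 and Onecut2, factors of newborn motor neurons and interneurons, changed by 4.23, 2.58 and 2.28. Some members of these lists fell: Gbx2 by 1.74, Dll1, a Notch ligand also of mesoderm, by 2.48, Evx1 by 3.38 and Gad1 by 1.06. Olig3 rose by 2.75, and Irx1, the least changed of the intermediate list, by 1.35. Of the anterior neural list, Emx2 fell by 2.74, and Lhx2 and Otx2 were not called. Over the same interval 8 of 9 genes of neuro-mesodermal progenitors and 8 of 8 of the presomitic mesoderm fell (medians -2.22 and -5.55). The summed level of the neuro-mesodermal list went from 268 to 745 FPKM at 96 h to 68.9 to 81.9 at 168 h, and that of the presomitic list from 409 to 555 to 37.8 to 39.1.

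The wild-type controls outside the time course asked the same question of 96 against 120 h with 4 libraries each. Sox1, Sox3, Pax6, Irx3 and Pax7 rose in them, and the ventral and neuronal genes were not called. Sox1 measured 0.156, 0.0699, 0.321 and 0.382 FPKM at 96 h and 1.95, 1.77, 1.82 and 4.72 at 120 h, and Pax7 0.482, 0.495, 0.315 and 0.217 against 5.75, 6.04, 2.28 and 4.16. For these genes each 120 h library exceeded every 96 h library. The changes were 3.24 for Pax7 (SE 0.19, adjusted p = 8.47e-16), 3.0 for Sox1 (SE 0.31, adjusted p = 8.41e-10), 2.49 for Irx3, 2.22 for Sox3 and 2.01 for Pax6, and 15.6% of all genes tested were called higher. All 5 calls stood without any 1 library, and all 5 were also made within each library set, with Pax7 at 3.07 in set 1 and 2.95 in set 2, and Sox1 at 2.89 and 2.16, where 14% and 12.3% of all genes were called higher. The set 2 test held replicate 4 and the 2 time-course libraries of each stage, so it was largely the time course again. Within set 2 Neurog1 (0.91) was called as well, on 2 to 4 fragments in each library at 120 h, and it was listed at 0 at 96 h. Replicate 4 at 120 h, the only set 2 library of its group, held more Sox1, Sox3 (15.8 against 6.54 to 8.02 FPKM) and Pax6 (10.6 against 1.87 to 2.44) than the other 3.

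At 144 h the control libraries held more mRNA of ventral and proneural genes than the time-course libraries of the same labelled stage. Olig2 measured 19.1 and 14.7 FPKM in the controls and 5.13 and 5.14 in the time course, and Neurog2 14.4 and 10.9 against 3.82 and 3.16. Pax6 measured 26.4 and 25.3 against 9.40 and 10.7, and Neurog1 1.99 and 1.89 against 0.788 and 0.917. These groups did not overlap for any of the 4 genes. The differences were 1.83 for Neurog2 (SE 0.47, adjusted p = 0.00417), 1.69 for Olig2 (SE 0.57, adjusted p = 0.0307), 1.35 for Pax6 and 1.10 for Neurog1, and 21.5% of all genes tested were called. Sox1, at 7.38 and 7.76 FPKM in the controls, lay below both time-course libraries and was not called. Proneural effectors were also higher in the controls, Neurod4 at 7.57 against 2.00 FPKM and Nhlh1 at 5.47 against 1.13, and 8 of 9 neuro-mesodermal and 7 of 8 presomitic genes were lower. Compared over 1000 genes outside the gene lists and the Hox clusters, the controls labelled 144 h lay nearest to 156 and 157 h of the interpolated time course, and the controls labelled 120 h nearest to 125 and 126 h. Wild-type libraries of 1 labelled stage thus differed in these genes by amounts that lie within the range of the mutant differences below.

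All mutants of a stage were compared with the same control libraries, so their results are not independent of each other. Of 80 tests of the 10 genes at 120 h, 18 were called, and they fell in 5 of 8 mutants.

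**Figure D3:**
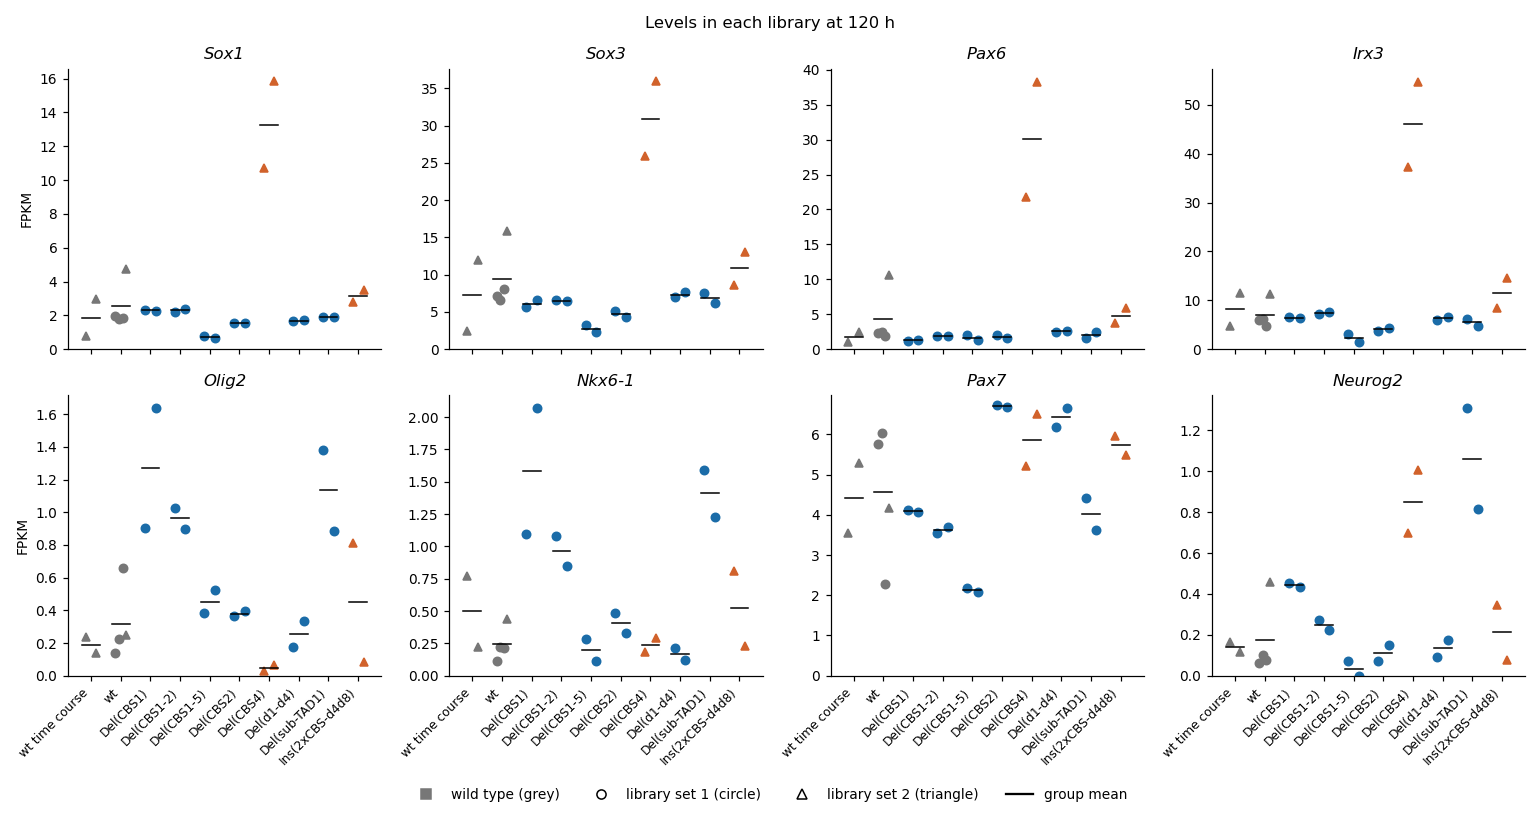
Expression of 8 of the genes at 120 h (FPKM, vertical axis) in each library of the wild type (grey) and of each mutant (horizontal axis). The wild-type time course and the wild-type controls are separate groups. Circles are libraries of set 1, triangles libraries of set 2, and bars are group means. Del(CBS4) lies above every control for Sox1, Sox3, Pax6, Irx3 and Neurog2.

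Del(CBS4) at 120 h held far more progenitor gene mRNA than any control. Pax6 measured 21.7 and 38.3 FPKM against 2.27, 2.44, 1.87 and 10.6 in the controls, Sox1 10.7 and 15.8 against 1.95, 1.77, 1.82 and 4.72, and Irx3 37.2 and 54.8 against 5.95, 6.18, 4.74 and 11.3. Sox3 stood at 25.9 and 36 FPKM against 7.17, 6.54, 8.02 and 15.8. None of these groups overlapped, and the Sox1 level of replicate 2 was the highest of all 61 libraries. The changes were 3.11 for Pax6 (SE 0.41, adjusted p = 9.18e-07), 2.74 for Irx3 (SE 0.41, adjusted p = 8.02e-06), 2.43 for Sox1 (SE 0.37, adjusted p = 1.16e-05) and 1.78 for Sox3 (SE 0.35, adjusted p = 0.000266). Among all genes tested, 37.5% were called.

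Neurog2 was higher too, at 0.697 and 1.00 FPKM against 0.0610, 0.0994, 0.0758 and 0.460 (1.98, SE 0.40, adjusted p = 0.000401). Olig2 went the other way, at 0.0304 and 0.0684 FPKM against 0.142, 0.226, 0.661 and 0.248 (-1.36, SE 0.49, adjusted p = 0.0291), on 2 and 5 fragments. Nkx6-1 and Pax7 were not called. Tubb3 rose by 1.04 and Neurog1 by 0.87, but Neurog1 rests on 2 and 11 fragments and its groups overlapped. The calls of Neurog1 (0.28) and Tubb3 (0.86) were lost without Del(CBS4) replicate 2. That of Olig2 was lost without wild-type replicate 3 (-1.02) or either Del(CBS4) replicate (-1.17 and -1.54).

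Within set 2, with wild-type replicate 4 and the 2 time-course libraries as controls, 5 genes were called: Pax6 (3.21), Sox1 (2.50), Irx3 (2.40), Sox3 (1.96) and Neurog2 (1.57), where 12.4% of all genes were. Olig2 (-1.03, adjusted p = 0.269), Neurog1 (0.24, adjusted p = 0.734) and Tubb3 (0.69, adjusted p = 0.181) were not. The 5 calls were also the ones that stood without any 1 library. All 7 intermediate domain genes rose against the 4 controls (median 2.14), and 6 of 7 within the set. Dbx1 was at 27.1 FPKM against 1.04, Dbx2 at 2.08 against 0.180 and Prdm13 at 0.857 against 0.142, while of 9 dorsal genes none were called and of 8 ventral genes 1 rose and 1 fell. Of the pan-neural list 8 of 15 rose and none fell, among them Sox21 (14.1 against 2.95 FPKM) and Pou3f2 (2.94 against 0.794).

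Mesodermal lists were lower in the same libraries. Of 9 neuro-mesodermal genes 5 fell, of 8 presomitic genes 6 and of 11 somite genes 5, with none higher. Within the set these counts were 3, 3 and 5. The summed somite list measured 270 to 392 FPKM in Del(CBS4) against 533 to 623 in the controls, and the presomitic list 41.4 to 54.4 against 58.5 to 111. The part of this shift in the levels of the 10 genes was not tested. Del(CBS4) replicates 1 and 2 of 120 h lay nearest to 114 and 127 h of the interpolated time course.

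Del(CBS1-5) at 120 h went in the opposite direction for the progenitor genes. Sox3 measured 3.24 and 2.28 FPKM, Irx3 2.99 and 1.5, and Sox1 0.785 and 0.664, all below every control, and Pax7 measured 2.19 and 2.08 against 2.28 to 6.04. The changes were -1.66 for Sox3 (SE 0.35, adjusted p = 0.00171), -1.60 for Irx3 (SE 0.41, adjusted p = 0.00878), -1.57 for Sox1 (SE 0.37, adjusted p = 0.00478) and -0.97 for Pax7 (SE 0.23, adjusted p = 0.00517), beside 13.3% of all genes called. The same 4 were called within set 1 (-1.38, -1.35, -1.24 and -0.98), where 7.85% of genes were. All 4 calls were lost without Del(CBS1-5) replicate 2, with changes of -1.41, -1.13, -1.47 and -0.93, and that of Pax7 also without replicate 1 (-1.01). Replicate 2 lay nearest to 115 h of the interpolated time course and replicate 1 to 126 h. The part of stage in these levels was not tested. Pax6, at 1.98 and 1.29 FPKM, was not called. In these libraries 6 of 9 pluripotency genes were higher, with a summed level of 629 to 714 FPKM against 60.3 to 357, as were 5 of 5 endothelial and 4 of 8 endoderm genes. Their part in the lower progenitor levels was not tested.

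The ventral genes moved in 3 other lines at 120 h, from a low base. Nkx6-1 measured 1.09 and 2.07 FPKM in Del(CBS1), 1.08 and 0.846 in Del(CBS1-2) and 1.59 and 1.23 in Del(sub-TAD1), against 0.113, 0.221, 0.210 and 0.440 in the controls. None of these libraries overlapped the controls, whose levels rest on 8 to 29 fragments. The changes were 2.30 in Del(CBS1) (SE 0.38, adjusted p = 0.000575), 1.69 in Del(CBS1-2) (SE 0.38, adjusted p = 0.0131) and 2.2 in Del(sub-TAD1) (SE 0.38, adjusted p = 0.000247). The share of all genes called was 2.1%, 2.35% and 6.15%. Within set 1 the changes were 2.54, 1.93 and 2.44, all called, where 1.2%, 0.608% and 6.65% of all genes were. Only the call in Del(sub-TAD1) stood without any 1 library: that in Del(CBS1) was lost without its replicate 2 (1.87), and that in Del(CBS1-2) without either of its replicates (1.53 and 1.85). Del(CBS1-2) was made in the Del(CBS1) line, so these are not separate cases.

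Olig2 followed Nkx6-1 in 2 of the 3. It measured 0.903 and 1.64 FPKM in Del(CBS1) and 1.38 and 0.886 in Del(sub-TAD1), against 0.142, 0.226, 0.661 and 0.248, with changes of 1.80 (SE 0.49, adjusted p = 0.0458) and 1.67 (SE 0.49, adjusted p = 0.0354). In Del(CBS1-2), at 1.03 and 0.899 FPKM, it was above every control but not called. Within the set Olig2 was called in neither (adjusted p = 0.176 and 0.087). Both calls were lost without wild-type replicate 1 (1.58 and 1.45) or 2 (1.72 and 1.6) and without mutant replicate 1 (2.19 and 1.38) or 2 (1.40 and 1.97), and that in Del(CBS1) also without wild-type replicate 4 (1.75). Del(sub-TAD1) also had more Neurog2, 1.31 and 0.817 FPKM against 0.0610 to 0.460 (2.26, SE 0.40, adjusted p = 0.000377). This call stood without any 1 library and within the set (2.67).

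In Del(sub-TAD1) 5 of 8 ventral genes rose (median 1.43): Shh, Foxa2, which marks the floor plate and endoderm that make Shh, and the targets Gli1, Ptch1 and Hhip, of which Foxa2, Gli1 and Ptch1 are named after their values were seen. Shh was at 0.937 FPKM against 0.130 in the controls and Hhip at 0.428 against 0.122. In the same libraries 5 of 8 endoderm genes rose (median 1.89). The summed endoderm list measured 181 to 202 FPKM against 47.7 to 236 in the controls, so the groups overlapped. Its part in the rise of Nkx6-1 was not tested.

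In Del(CBS2), Del(d1-d4) and Ins(2xCBS-d4d8) at 120 h limma called none of the 10 genes, while 4, 2 and 0 had an unadjusted p under 0.05. The shares of all genes called were 0.193%, 1.85% and 26.9%. In Del(d1-d4) Sox1 measured 1.65 and 1.72 FPKM and Pax7 6.19 and 6.65, and in Del(CBS2) Sox1 measured 1.54 and 1.57 and Pax7 6.74 and 6.67. Sox1 lay below and Pax7 above every control in both mutants, with 95% intervals of the log2 difference from -1.21 to 0.31 and from -1.32 to 0.20 for Sox1 and from 0.10 to 1.05 and from 0.16 to 1.11 for Pax7. In Ins(2xCBS-d4d8) all 10 genes overlapped the controls. Its libraries differed among themselves for the ventral genes: replicate 1 held 0.813 FPKM of both Olig2 and Nkx6-1, and replicate 2 held 0.0859 and 0.232. Replicate 1 lay nearest to 125 h of the interpolated time course and replicate 2 to 116 h, and the part of stage was not tested. In fits of only the compared groups none of the 18 calls at 120 h were made by limma, and 16 of the 80 tests had an unadjusted p under 0.05 against 29 with all libraries in the fit. The 120 h calls thus rest on a spread estimated over all 28 groups.

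At 144 h, 8 of the 10 genes were lower in Del(CBS1-5), with the ventral and proneural genes lowest. Nkx6-1 measured 0.745 and 0.932 FPKM against 12.8 and 10.6 in the controls, Neurog2 0.998 and 1.06 against 14.4 and 10.9, Olig2 2.28 and 2.76 against 19.1 and 14.7, and Neurog1 0.139 and 0.384 against 1.99 and 1.89. The time-course libraries of 144 h lay between the 2 groups for all 4 genes, at 5.75 and 5.43, 3.82 and 3.16, 5.13 and 5.14, and 0.788 and 0.917 FPKM. Changes were -3.65 for Nkx6-1 (SE 0.44, adjusted p = 6.82e-08), -3.49 for Neurog2 (SE 0.47, adjusted p = 4.9e-07), -2.69 for Olig2 (SE 0.57, adjusted p = 0.000483) and -2.58 for Neurog1 (SE 0.36, adjusted p = 1.14e-06). These 4 calls stood without any 1 library, and 23.7% of all genes tested were called.

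**Figure D4:**
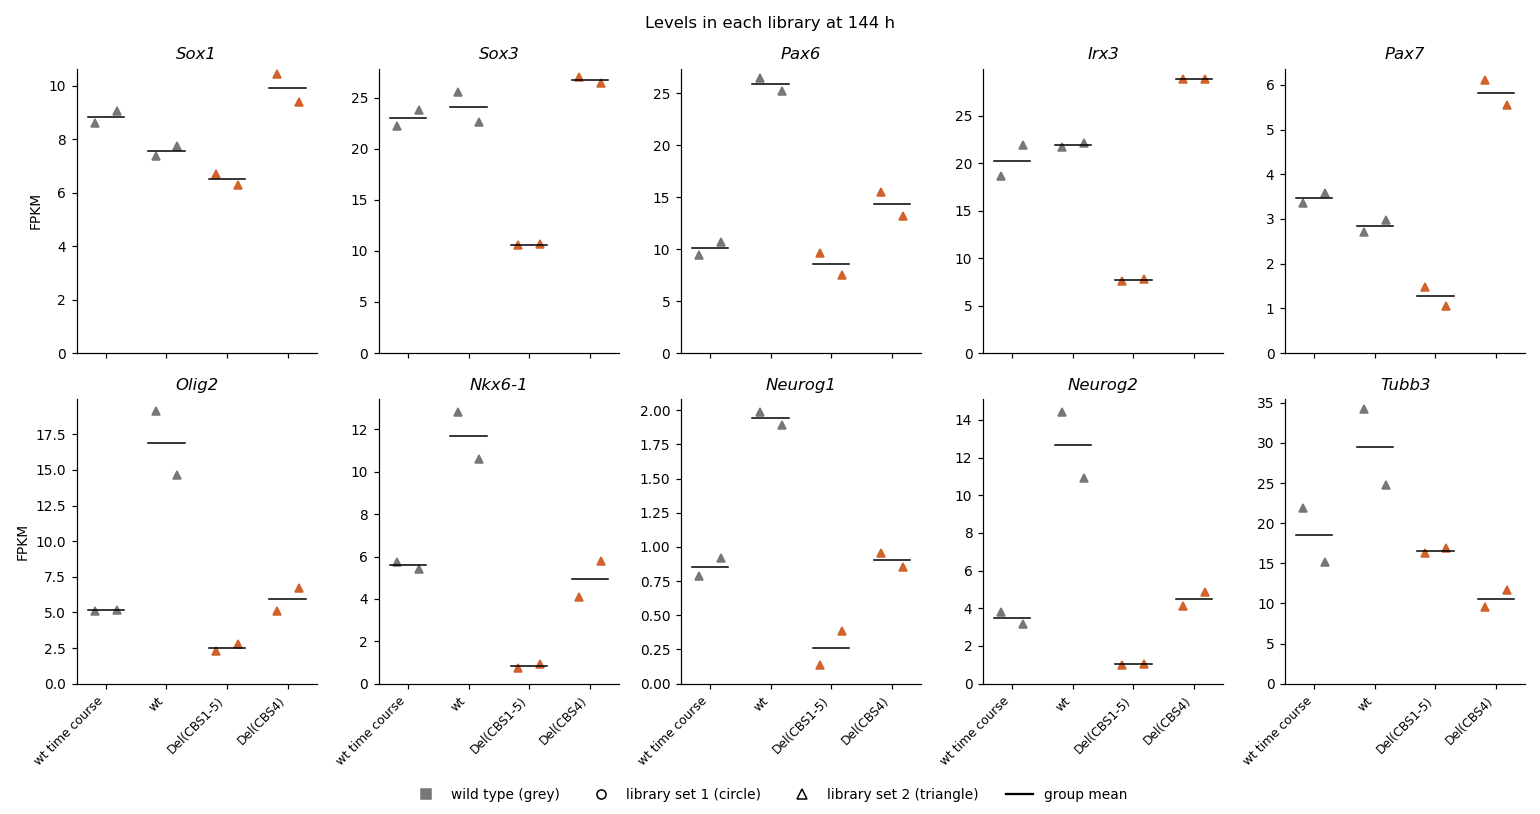
Expression of the 10 genes at 144 h (FPKM, vertical axis) in each library of the wild type (grey), Del(CBS1-5) and Del(CBS4) (horizontal axis). The wild-type time course and the wild-type controls are separate groups. All libraries are of set 2, and bars are group means. Nkx6-1 and Neurog2 lie at about 1 FPKM or less in Del(CBS1-5) and above 10 FPKM in both controls, with the time-course libraries between them.

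The progenitor and dorsal genes were lower by less. Pax6 measured 9.60 and 7.54 FPKM against 26.4 and 25.3 (-1.59, SE 0.47, adjusted p = 0.0113), Irx3 7.59 and 7.78 against 21.7 and 22.1 (-1.5), Sox3 10.6 in both against 25.5 and 22.6 (-1.17) and Pax7 1.48 and 1.05 against 2.72 and 2.97 (-1.12). Sox1, at 6.71 and 6.28 FPKM against 7.38 and 7.76, was not called, nor was Tubb3, at 16.3 and 16.9 against 34.2 and 24.7. With the time-course libraries added as controls, Nkx6-1 (-3.13), Neurog2 (-2.57), Neurog1 (-2.03), Olig2 (-1.85), Irx3 (-1.44), Pax7 (-1.26) and Sox3 (-1.14) were called, and Pax6 (-0.92) was not, beside 30.7% of all genes. The calls of Sox3 (-1.26 to -1.08) and Irx3 (-1.52 to -1.48) were lost without any 1 of the 4 libraries, that of Pax6 without either control or mutant replicate 2 (-1.62 to -1.42), and that of Pax7 without mutant replicate 2 (-0.89).

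Other neural lists were lower in part in these libraries. Of 16 proneural and Notch genes 10 fell and 1 rose, of 7 intermediate genes 5 fell and none rose, of 15 pan-neural genes 6 fell and 1 rose, of 8 ventral genes 3 fell and 1 rose, of 10 neuron identity genes 4 fell and none rose, and of 9 dorsal genes 2 fell and 4 rose. Of 13 neuron structure genes 4 fell and none rose, but their median change was 0.10 and their summed level was 56.9 to 58.9 FPKM against 50.2 to 59.8. The summed dorsal list was higher, at 21.3 to 21.5 FPKM against 18 to 19.6. Neurod4 was at 0.553 against 7.57 FPKM, Nhlh1 at 0.355 against 5.47, Dbx1 at 1.11 against 26.2 and Elavl3 at 0.800 against 3.90. Of 9 pluripotency genes 8 were higher and 1 lower (median 4.22; 3.32 with the time-course libraries added), and their summed level was 860 to 942 FPKM against 23.7 to 29.3 in the controls and 122 to 132 in the time course. Pou5f1, which keeps stem cells undifferentiated, was at 203 FPKM against 2.28. The part of these cells in the lower levels of the 10 genes was not tested. The Del(CBS1-5) libraries lay nearest to 138 and 139 h of the interpolated time course.

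At 144 h none of the 4 progenitor genes were called in Del(CBS4). Sox1 measured 10.4 and 9.39 FPKM against 7.38 and 7.76, Sox3 27.0 and 26.4 against 25.5 and 22.6, and Irx3 28.9 in both against 21.7 and 22.1, all above both controls. Pax6 measured 15.5 and 13.2 FPKM against 26.4 and 25.3, below both. The ventral and proneural genes lay below both controls and were not called: Olig2 at 5.12 and 6.73 FPKM (-1.5, 95% interval -2.66 to -0.34), Nkx6-1 at 4.08 and 5.77 (-1.25, -2.14 to -0.35), Neurog2 at 4.14 and 4.84 (-1.47, -2.42 to -0.52) and Neurog1 at 0.955 and 0.851 (-1.03, -1.76 to -0.29). Each of these intervals lies below 0, while no adjusted p passed over all genes. Tubb3 was lower, at 9.55 and 11.6 FPKM against 34.2 and 24.7 (-1.45, SE 0.38, adjusted p = 0.0338), and Pax7 higher, at 6.11 and 5.54 against 2.72 and 2.97 (1.01, SE 0.27, adjusted p = 0.0387). Both calls, beside 2.05% of all genes, were lost without any 1 of the 4 libraries, with changes of -1.69 to -1.22 for Tubb3 and 0.94 to 1.08 for Pax7. With the time-course libraries added only Tubb3 (-1.12) was called, beside 3.42% of all genes, and Pax7 (0.87, adjusted p = 0.056) was not. Against the 2 controls 5 of 9 neuro-mesodermal genes were higher, and none with the time-course libraries added. The Del(CBS4) libraries lay nearest to 126 to 136 h of the interpolated time course.

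Whether a mutant's effect changed with stage was tested directly, as the difference of its log2 changes. On the interpolated time course the controls lay nearest to 125 to 126 h at 120 h, and to 156 to 157 h at 144 h. Del(CBS4) lay nearest to 114 and 127 h, and to 126 and 136 h. Del(CBS1-5) lay nearest to 115 and 126 h, and to 138 and 139 h. Both mutants thus lay further from the controls at 144 h than at 120 h. The part of stage in the differences was not tested. In Del(CBS4) the difference, 144 h minus 120 h, was -3.96 for Pax6 (SE 0.62, adjusted p = 5.86e-05), with calls also for Neurog2 (-3.45), Tubb3 (-2.50), Irx3 (-2.35), Sox1 (-2.04) and Neurog1 (-1.89), beside 8.27% of all genes. Within the set Pax6 (-3.38), Sox1 (-2.22) and Tubb3 (-1.81) were called, beside 2.55%, and Irx3 (-1.94), Neurog2 (-2.12) and Neurog1 (-0.72) were not. In Del(CBS1-5) the change was -3.47 for Nkx6-1 (SE 0.58, adjusted p = 0.000141), -3.22 for Olig2, -2.74 for Neurog1 and -2.62 for Neurog2, beside 7.07% of all genes. At 120 h these genes were low in controls and mutant alike. Their means were 0.246 and 0.199 FPKM for Nkx6-1, 0.319 and 0.453 for Olig2, 0.0298 and 0.0365 for Neurog1, and 0.174 and 0.0351 for Neurog2. A lower level could hardly have shown at 120 h, so these changes largely restate the differences at 144 h. Here the 120 h libraries were of set 1 and the 144 h libraries of set 2, and with the controls of each set Nkx6-1 (-3.18), Neurog1 (-2.48) and Neurog2 (-2.13) were called, beside 7.66%, and Olig2 (-2.34) was not. In Del(sub-TAD1) from 96 to 120 h the effect grew by 2.67 for Neurog2 (SE 0.54, adjusted p = 0.00198) and by 1.59 for Nkx6-1 (SE 0.51, adjusted p = 0.0205), beside 23.6% of all genes. Its 96 h libraries were of set 2 and its 120 h libraries of set 1, and with the controls of each set the effect grew by 2.99 and 2.44, beside 3.49%. Limma called none of the 10 genes for the changes from 96 to 120 h in Del(CBS1-2), Del(CBS1-5), Del(CBS1), Del(CBS2), Del(d1-d4) and Ins(2xCBS-d4d8), in that order, where 4, 2, 3, 1, 0 and 3 had an unadjusted p under 0.05 and 0.175%, 0.257%, 0.0526%, 0.0117%, 0.0234% and 0.392% of all genes were called. Of the calls in this paragraph, those of Sox1 (-2.12 to -1.77), Irx3 (-2.36 to -2.07) and Neurog1 (-1.82 to -1.30) in Del(CBS4) were lost without its 120 h replicate 2 and other libraries, that of Neurog2 in Del(CBS1-5) without its 120 h replicate 1 (-2.24), and that of Nkx6-1 in Del(sub-TAD1) without its 96 h replicate 2 (1.29) or 3 (1.49) or 120 h replicate 1 (1.41).

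At 96 h, before most of the 10 genes had come on, 10 of 70 tests were called, 4 of them for Sox3. Sox3 measured 4.47 and 4.19 FPKM in Del(CBS1-2) and 4.82 and 4.27 in Ins(2xCBS-d4d8), above the 1.66, 1.78, 1.84 and 1.98 of the controls (1.21 and 1.28). It was below them in Del(CBS1-5), at 0.819 and 0.803 (-1.07), and in Del(sub-TAD1), at 0.904, 1.01 and 1.05 (-0.82). The time-course libraries of 96 h held 3.33 and 1.56 FPKM, which lie above and below all 4 controls. On the interpolated time course the controls lay nearest to 92 to 100 h and Ins(2xCBS-d4d8) to 92 and 100 h. Del(CBS1-2) lay nearest to 92 h, Del(CBS1-5) to 90 h and Del(sub-TAD1) to 91 to 92 h. The part of stage in the 96 h levels was not tested. Neurog2 was higher in Ins(2xCBS-d4d8), at 0.765 and 0.715 FPKM against 0.0978, 0.178, 0.159 and 0.0666 (1.93, SE 0.40, adjusted p = 0.00103), and in Del(CBS1-2), at 0.421 and 0.509 (1.35, SE 0.40, adjusted p = 0.0468). Sox1 was higher in Ins(2xCBS-d4d8), at 0.666 and 0.613 FPKM (1.27, SE 0.37, adjusted p = 0.0109).

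Olig2 was higher at 96 h in both lines made from blastocysts. It measured 0.639 and 0.457 FPKM in Del(CBS1-5) (1.53, SE 0.49, adjusted p = 0.0317) and 0.528, 0.489 and 0.626 in Del(sub-TAD1) (1.54, SE 0.44, adjusted p = 0.00529), against 0, 0.0172, 0.293 and 0.426 in the controls and 0.0372 and 0.0587 in the time course. Both were called within their sets too (1.95 and 1.52). These levels rest on 24 to 43 fragments, and the controls on at most 22. Markers of other cell types were also higher in these libraries. In Del(CBS1-5) 6 of 9 pluripotency genes were higher, with a sum of 779 to 781 FPKM against 96.1 to 387. In Del(sub-TAD1) 7 of 8 endoderm genes were higher and 1 lower, with a sum of 351 to 718 FPKM against 189 to 246, as were 2 of 3 neural crest genes (18 to 24.3 against 5.77 to 15.8) and 6 of 9 pluripotency genes (158 to 513 against 96.1 to 387). Within the set 1 endoderm, 1 neural crest and 2 pluripotency genes were higher in Del(sub-TAD1), and 5 pluripotency genes in Del(CBS1-5). The part of these cells in the Olig2 level was not tested. Tubb3 was called in Del(sub-TAD1) (0.89) at 6.09, 12.6 and 12.1 FPKM against 3.37 to 8.05, with overlap.

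The shares of all genes called at 96 h were 4.49% in Del(CBS1-2), 14.8% in Del(CBS1-5), 40% in Del(sub-TAD1) and 27.9% in Ins(2xCBS-d4d8). Within the set, 6 of the 10 calls were not made: Sox3 (1.25, adjusted p = 0.116) and Neurog2 (1.22, adjusted p = 0.282) in Del(CBS1-2), Sox3 in Del(CBS1-5) (-1.03, adjusted p = 0.0755), Sox3 (1.02, adjusted p = 0.082) and Sox1 (0.51, adjusted p = 0.446) in Ins(2xCBS-d4d8), and Tubb3 in Del(sub-TAD1) (0.53, adjusted p = 0.245). Neurog2 was called in Ins(2xCBS-d4d8) (2.01, beside 9.91%), and in Del(sub-TAD1) Sox1 (-1.43), Irx3 (-1.18) and Sox3 (-1.07) were, beside 14.1%. Of these, Sox1 and Irx3 were not called in Del(sub-TAD1) against the 4 controls, where the mean of Irx3 was 1.115 FPKM in both groups. The set 2 controls were replicate 4, at 1.42 FPKM of Irx3, and the time-course libraries, with a mean of 3.79. Replicate 4 lay within the mutant range of 0.836 to 1.57 FPKM. The share within the set was 11.9% in Del(CBS1-5). Whichever 1 library was left out, the calls of Olig2 in Del(sub-TAD1) and of Neurog2 in Ins(2xCBS-d4d8) stood. Sox1 in Ins(2xCBS-d4d8) was lost without either of its replicates (1.22 and 1.32) and Sox3 without its replicate 1 (1.19). Each call in Del(CBS1-2) and Del(CBS1-5), and those of Sox3 and Tubb3 in Del(sub-TAD1), were lost without any of several libraries, controls and mutants alike, with changes of 1.17 to 1.26 and 1.22 to 1.46 for Sox3 and Neurog2 in Del(CBS1-2), 1.15 to 1.74 for Olig2 and -1.11 to -1.03 for Sox3 in Del(CBS1-5), and -0.86 to -0.76 and 0.68 to 0.73 for Sox3 and Tubb3 in Del(sub-TAD1). Limma called none of the 10 genes in Del(CBS1), Del(CBS2) or Del(d1-d4), where 3, 2 and 0 had an unadjusted p under 0.05 and 1.23%, 0.298% and 1.19% of all genes were called.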

How the data were processed

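FPKM values per gene were deposited for 61 libraries in 28 groups. Per the study's methods and processing notes, the authors trimmed paired-end reads of 75 bases from poly-A stranded libraries with cutadapt 1.16, mapped them to mm10 with STAR 2.7.7a and computed the FPKM values with Cufflinks 2.2.1 from uniquely mapped reads. No counts were used, so no count test was run. The main fit took log2(FPKM + 0.1) of the 17098 genes with a mean of at least 1 FPKM in at least 1 group, all 61 libraries and 1 coefficient per group, with limma 3.58.1 in R 4.3.3. The tests were two-sided with Benjamini-Hochberg adjustment over all genes tested, called at an adjusted p under 0.05. All 10 genes passed the filter, although Neurog1 reached 1 FPKM in only 4 libraries. Python 3.11.15 with pandas 2.3.3 served for the rest, and the fit was tested on simulated data.

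Fragments behind a value were worked back from the confidence bounds of Cufflinks, for genes with 1 transcript. Among values of up to 10 fragments, 59.5% to 94.1% came out whole within 0.02, depending on the library. Fragment numbers and the fold bounds worked out from them cover counting error only. The 95% intervals of log2 differences come from the limma fit and its estimate of the spread between libraries. Same-numbered control libraries at 96 and 120 h deviated together (correlations 0.561 to 0.889). At both stages replicates 1 to 3 were of set 1 and replicate 4 of set 2. Groups that mix the sets in this way can give such correlations, so they cannot show pairing. A fit with the replicate number as a block also called 5 genes in these controls. The compared genes and all gene lists were chosen with earlier results of these data known. The text names all 10 genes, the 3 most raised and the 1 least raised gene of each neural list from 96 to 168 h, and genes of nearest profile. Some genes under this rule are not reported here. The alternatives tried were the pseudocount, the filter, scaling, the variance trend, the libraries in the fit, the library set, other controls, a replicate block and leaving out each library.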

Additional observations from a re-analysis of the deposited data

Results flagged for a closer look

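In groups of 4 wild-type control libraries, 20 combinations of group and gene were examined for a library that stood apart from the other 3. In 7 combinations such a library was found. All 7 were replicate 4, the only library of set 2 in its group. Chance gives about 1 in 20 for unrelated combinations. These share libraries and genes of like profile, so the 7 cannot be set against that share. For Neurog1 at 120 h the other 3 were listed at 0, so any level above 0 would have stood apart. At 120 h replicate 4 held 4.72 FPKM of Sox1, 15.8 of Sox3, 10.6 of Pax6, 0.119 of Neurog1 and 0.460 of Neurog2, and at 96 h it held 1.21 FPKM of Pax6 and 1.42 of Irx3. The replicate and the library set cannot be told apart for these values.

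The effect of a mutant differed between stages for 12 combinations of gene and mutant, by the test of the difference itself. The part in these differences of the estimated stages of mutants and controls was not tested. In Del(CBS4), from 120 to 144 h, the differences on the log2 scale were -2.04 for Sox1, -3.96 for Pax6, -2.35 for Irx3, -1.89 for Neurog1, -3.45 for Neurog2 and -2.50 for Tubb3. In Del(CBS1-5) over the same stages they were -3.22 for Olig2, -3.47 for Nkx6-1, -2.74 for Neurog1 and -2.62 for Neurog2. At 120 h these genes were low in controls and mutant alike, so a lower level could hardly have shown there. In Del(sub-TAD1), from 96 to 120 h, the differences were 1.59 for Nkx6-1 and 2.67 for Neurog2. Of these 12, the 7 for Olig2, Nkx6-1 and Neurog1 in Del(CBS1-5), Pax6, Neurog2 and Tubb3 in Del(CBS4) and Neurog2 in Del(sub-TAD1) were called without any 1 library.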

How the results depend on the processing

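With all libraries in the fit, limma called 24 of 70 tests over the time-course steps, 10 of 10 genes from 96 to 168 h, 5 of 10 in the controls, and 10, 18 and 10 tests in the mutants at 96, 120 and 144 h, with 12 changes of effect. Calls at 96 h fell to 5 with a pseudocount of 1 FPKM, to 5 with no filter, to 6 within the library set and to 4 in fits of only the compared groups. Such fits gave 10 calls for the steps, 0 at 120 h (16 of 80 tests at an unadjusted p under 0.05) and 1 for the changes of effect. A fit of the time-course libraries alone, chosen after seeing the data, gave 13 for the steps. The replicate number as a block gave 11 calls for the steps, 16 at 96 h and 23 for the changes of effect, and in the time course and the mutants same-numbered libraries did not deviate together (correlations -0.0893 to 0.0945 and -0.0597 to 0.0838), so they share only a number. With the block in a fit of all libraries, also added later, these counts were 27, 11 and 17. In the controls at 96 and 120 h the block changed no call. Leaving out 1 library gave 19 to 27 calls for the steps, 10 to 10 from 96 to 168 h, 5 to 6 in the controls, 6 to 9, 13 to 20 and 5 to 8 in the mutants at 96, 120 and 144 h, and 9 to 15 changes of effect. At 144 h the 5 came without wild-type replicate 1 or 2, and at 96 h the 6 without wild-type replicate 1 or 4. Of the 89 calls given for single genes, 44 stood without any 1 library and 31 in fits of only the compared groups. The cause of these differences was not tested. At the median depth of 23.3 M fragments, Neurog1 and Olig2 before 132 h rest on few fragments.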
